A study of Homo sapiens with 4 samples.

Results

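The collagen genes were followed in single-cell RNA sequencing of CHP134, an established human neuroblastoma line. Members were the protein-coding genes whose symbol is COL, a number, A and a number, and 44 of the 60651 gene IDs in the count table met that rule. The rule reads symbols and gene types only, though collagens were chosen as the subject with earlier results of these data known. The 4 treatments lasted 24 h and were the combination of 13cRA (5 µM) with doxazosin (10 µM), 13cRA alone (5 µM), doxazosin alone (10 µM) and the solvent control DMSO (0.04%). 13cRA is 13-cis-retinoic acid, a retinoid given against neuroblastoma, and doxazosin is a blocker of alpha-1 adrenergic receptors. Each treatment is 1 sample of the same unmodified line, all 4 were processed on 1 chip, and 287, 318, 239 and 353 cells were kept of the combination, 13cRA, doxazosin and DMSO samples.

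With 1 sample per treatment, no difference between treatments has a replicate check and no p-value is given. A level is the gene's reads summed over the kept cells of a sample, scaled to 1000000 reads of that sample (CPM). A difference is the log2 of the ratio of (CPM + 1) in both samples, which understates the change of low genes, and "at least 2-fold" means a log2 of 1 or more. Intervals in brackets are exact 95% Poisson intervals of a CPM or exact (Clopper-Pearson) binomial intervals of a share of cells. They cover counting error only, and reads without molecular identifiers are not independent molecules. Summed reads were 72192743, 22636509, 46171287 and 48164169 in the combination, 13cRA, doxazosin and DMSO samples, so 13cRA was the shallowest, with a median of 59201 reads per cell against 122615 to 221558 in the others. After every cell was thinned to 34000 reads, the median was 3892 genes per 13cRA cell and 4688 to 4771 in the others, and the part of this gap in the results below was not tested.

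Collagens are proteins of 3 chains wound into a triple helix. Fibrillar collagens build the cables of the matrix, type IV collagens the mesh of basement membranes, type VI collagens beaded filaments, FACIT collagens attach to the surface of fibrils, and transmembrane collagens sit in the cell membrane. The chains are hydroxylated and folded in the endoplasmic reticulum, exported in large carriers, trimmed by proteases and cross-linked by lysyl oxidases. In neuroblastoma most matrix is usually laid down by stromal cells, and the tumour cells themselves make little.

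Collagen transcripts were scarce in CHP134 cells. The mean over the 4 samples lay between 0.101 CPM (COL8A2) and 11.2 CPM (COL25A1), and 16 of the 44 genes reached a mean of 1 CPM. These were 7 of 11 fibrillar, 1 of 8 basement membrane, 3 of 5 beaded filament, 3 of 10 FACIT, 1 of 4 transmembrane and 1 of 6 other collagens. The other 28 genes stayed at or below 1.502 CPM in every sample, with COL4A1 just under the minimum at a mean of 0.970 CPM and COL1A1 just over it at 1.05 CPM. COL7A1 had no read in doxazosin cells, with a Poisson interval up to 0.0799 CPM. COL18A1 and COL23A1 had none in DMSO cells, with intervals up to 0.0766 CPM.

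COL25A1 and COL5A1, which had the highest mean CPM before scaling by exon length, were higher with 13cRA both without and with doxazosin, in level and in share of positive cells. COL1A2, the second chain of type I collagen, was lower in both settings by summed reads, but not for 13cRA over DMSO when every cell had the same weight. COL6A1 and COL3A1 were highest in the 13cRA sample, where 1 cell held 198 of 388 and 181 of 234 of their reads. For doxazosin over DMSO no collagen differed by 2-fold on the scale of CPM + 1. Of all measured genes, 1.38% were at least 2-fold higher and 1.23% at least 2-fold lower. This scale understates the change of low genes, such as COL27A1 (2.08 CPM with doxazosin, 0.623 CPM with DMSO) and COL9A2 (0.585 and 1.79 CPM).

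**Figure D1:**
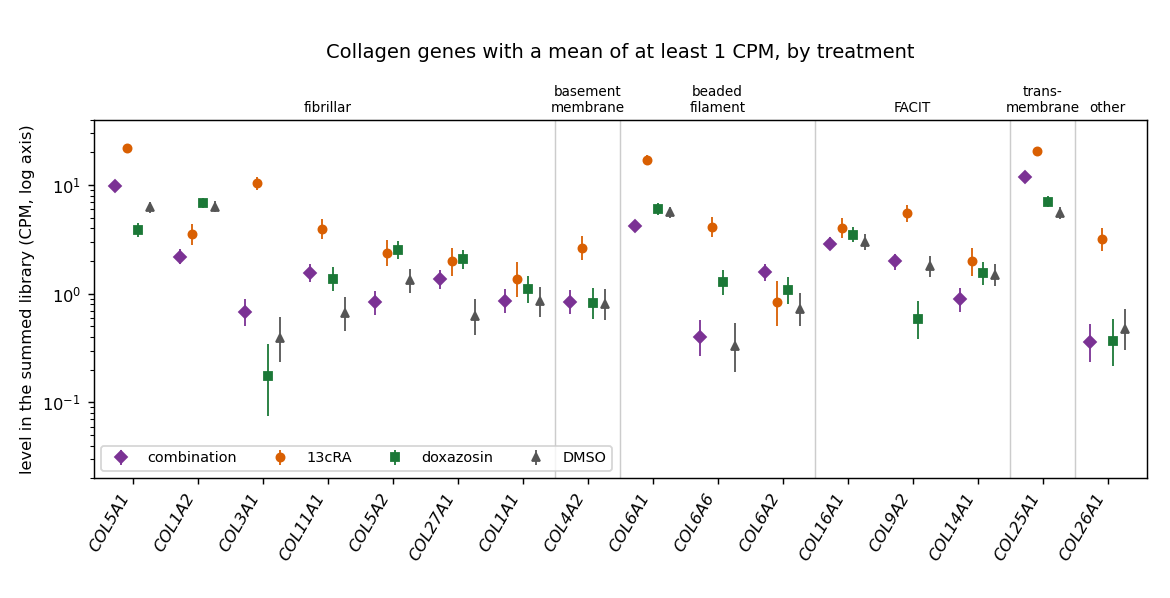
Level of each collagen gene with a mean of at least 1 CPM (log axis) in the 4 treatment samples, ordered by class, with bars for the 95% Poisson interval of the summed reads. The 13cRA point is the highest for 12 of the 16 genes, 5 of which reached the minimum only through the 13cRA sample (37.2% of all measured genes are highest there), and COL1A2 is lowest in the combination.

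COL25A1 (ENSG00000188517.16) encodes a transmembrane collagen of neurons whose shed part was found in amyloid plaques. GENCODE 29 places it on the minus strand of chromosome 4, 108808725 to 109302752 (GRCh38), with 8744 exonic bases. Its level was 11.8 CPM (11.1 to 12.7) in combination cells, 20.4 CPM (18.5 to 22.3) in 13cRA cells, 7.04 CPM (6.29 to 7.85) in doxazosin cells and 5.54 CPM (4.90 to 6.25) in DMSO cells. Both samples with 13cRA were above both samples without it. The log2 difference was 1.71 for 13cRA over DMSO and 0.68 for the combination over doxazosin, a pair of comparisons that share no sample. The second difference passed 2-fold after thinning (1.14) and with no cell filter (1.06). After thinning, a read was seen in 22.6% of combination cells (17.7 to 28.1), 22.9% of 13cRA cells (17.8 to 28.6), 9.79% of doxazosin cells (6.31 to 14.3) and 10.1% of DMSO cells (7.03 to 13.8). The shares with 13cRA were close to each other, and neither interval overlapped an interval without 13cRA. The cell with the most COL25A1 reads held 11.1% of them in the 13cRA sample, and without that cell in each sample the difference was 1.69.

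COL5A1 (ENSG00000130635.16) encodes the main chain of type V collagen, which sits inside type I fibrils and limits their width. It lies on the plus strand of chromosome 9, 134641774 to 134844843, with 11189 exonic bases. An antisense gene, COL5A1-AS1, lies within it, but the pair shares no exonic base in the annotation used here for gene positions. The annotation behind the counts is not known, so whether reads of the pair were kept apart was not tested. COL5A1 had 9.77 CPM (9.06 to 10.5) in combination cells and 21.9 CPM (20.0 to 23.9) in 13cRA cells. It had 3.86 CPM (3.31 to 4.47) in doxazosin cells and 6.23 CPM (5.54 to 6.97) in DMSO cells. Of the 16 genes it was the only one at least 2-fold higher in both 13cRA over DMSO (log2 1.66) and the combination over doxazosin (1.15). Over all 13306 genes with a mean of at least 1 CPM, 1.89% met both criteria, and 2.72% of those with a mean of 1 to 12 CPM did. One 13cRA cell held 206 of the 495 COL5A1 reads, and without the top cell of each sample the differences were 1.05 and 1.14. Thinned shares of positive cells were 14.8% in the combination (10.8 to 19.6), 16.9% with 13cRA (12.4 to 22.1), 3.83% with doxazosin (1.77 to 7.15) and 10.7% with DMSO (7.55 to 14.5). The combination and doxazosin intervals did not overlap, whereas those of 13cRA and DMSO did. The second difference was under 2-fold after thinning (0.82) and as a mean of per-cell CPM (0.97).

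The promoter windows of COL25A1 and COL5A1 are shown because these are the most abundant of the collagens that were higher with 13cRA in both settings. They are RefSeq sequences (GRCh38.p14), read from 250 bases before the RefSeq start and stopped before the first exon of GENCODE 29, with CG pairs in capitals. The COL25A1 stretch is chr4:109302753-109302908 on the minus strand and the COL5A1 stretch is chr9:134641553-134641773 on the plus strand.
COL25A1: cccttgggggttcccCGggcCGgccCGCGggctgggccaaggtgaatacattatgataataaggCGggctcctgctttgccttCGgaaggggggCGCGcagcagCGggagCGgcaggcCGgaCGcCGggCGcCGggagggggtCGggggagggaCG
COL5A1: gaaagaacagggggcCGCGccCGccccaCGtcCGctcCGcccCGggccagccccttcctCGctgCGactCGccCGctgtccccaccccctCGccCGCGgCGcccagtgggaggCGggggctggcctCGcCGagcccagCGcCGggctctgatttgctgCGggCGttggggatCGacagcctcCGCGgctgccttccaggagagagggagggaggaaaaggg
Both windows are rich in CG pairs, with 32 in the full 250 bases of COL25A1 and 29 in those of COL5A1. The printed stretches of 156 and 221 bases hold 17 and 25 of them. The median was 11 over the 250 bases of 34786 promoters. At least 29 pairs were found in 14.1% of all promoters. Of the 44 collagen genes, 32 had an entry, among them 10 of the 16 measured ones, with medians of 16 pairs and 65.2% GC, against 58.0% GC over all promoters. Motifs were searched on both strands of the 250 bases. Retinoid receptors bind pairs of half-sites, and none of the 3 half-site spellings given next was in either window. The half-site AGTTCA was in 8.82% of all promoters and in none of the 10 windows of measured collagens. The half-site GGGTCA was in 12.1% of all promoters and, among those 10, in COL11A1 and COL6A2, where in COL6A2 it overlaps a GC box. The half-site AGGTCA was in 4182 of the 34786 promoters and in none of those 10. The GC box GGGCGG was in 42.6% of all promoters and in 18 of the 32 collagen promoters, and COL5A1 held it at bases -230 to -225 and -214 to -209 from the start. A match is a run of letters and no evidence of binding, and its absence says only that these letters are not in this window.

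The remaining fibrillar collagens did not share a direction. COL1A2 (ENSG00000164692.18), on chromosome 7 from 94394561 to 94431232, had 2.19 CPM (1.86 to 2.56) in combination cells, 3.53 CPM (2.80 to 4.40) in 13cRA cells, 6.84 CPM (6.11 to 7.64) in doxazosin cells and 6.31 CPM (5.62 to 7.06) in DMSO cells. Both samples with 13cRA were below both without it, with log2 differences of -0.69 for 13cRA over DMSO and -1.30 for the combination over doxazosin. As a mean of per-cell CPM, which gives each cell the same weight, the first was 0.15, so the direction for 13cRA over DMSO turns with the weighting of cells. Thinned shares of positive cells were 4.07% in the combination (2.05 to 7.17), 7.23% with 13cRA (4.34 to 11.2), 9.36% with doxazosin (5.96 to 13.8) and 9.45% with DMSO (6.51 to 13.1), with overlapping intervals. COL1A1, the partner chain of COL1A2 in type I collagen, had 0.859, 1.37, 1.10 and 0.851 CPM in the combination, 13cRA, doxazosin and DMSO samples, all within a narrow range.

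COL3A1, the sole chain of type III collagen, had 0.679 CPM in combination cells, 10.3 CPM in 13cRA cells, 0.173 CPM in doxazosin cells and 0.394 CPM in DMSO cells. Of the 234 reads in the 13cRA sample, 181 came from 1 cell, and 14 of 318 cells had any. The log2 difference of 3.02 for 13cRA over DMSO was 1.37 without the top cell of each sample, and that of the combination over doxazosin was 0.52 with and 0.17 without them. COL11A1, a cartilage fibril chain that also pairs with COL5A1, had 1.57, 3.93, 1.36 and 0.664 CPM in combination, 13cRA, doxazosin and DMSO cells. It was highest with 13cRA (log2 1.57 over DMSO, or 0.62 with no cell filter), and the combination over doxazosin differed by 0.12.

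COL5A2, the second chain of type V collagen, did not go with COL5A1. It had 0.831 CPM in combination cells, 2.39 CPM in 13cRA cells, 2.53 CPM in doxazosin cells and 1.33 CPM in DMSO cells. The difference was 0.54 for 13cRA over DMSO, or -0.28 after thinning, and -0.95 for the combination over doxazosin, or 0.24 with no cell filter, so neither direction held in every setting. COL27A1, a fibrillar collagen of growth plate cartilage, had 1.36, 1.99, 2.08 and 0.623 CPM in combination, 13cRA, doxazosin and DMSO cells. It was lowest in DMSO, and each drug-treated sample was above it.

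Among beaded filament collagens, COL6A1 (ENSG00000142156.15), the first chain of type VI collagen, is on chromosome 21 from 45981737 to 46005050. It had 4.20 CPM (3.74 to 4.70) in combination cells, 17.1 CPM (15.5 to 18.9) in 13cRA cells, 6.04 CPM (5.35 to 6.80) in doxazosin cells and 5.61 CPM (4.96 to 6.32) in DMSO cells. In the 13cRA sample 198 of 388 reads came from 1 cell, in which 1521 genes were detected. Without the top cell of each sample the levels were 3.85 CPM in the combination, 8.39 CPM with 13cRA, 5.52 CPM with doxazosin and 5.15 CPM with DMSO, and the log2 difference for 13cRA over DMSO was 0.61 in place of 1.46. Thinned shares of positive cells were nearly equal, at 11.1% in the combination (7.62 to 15.5), 10.8% with 13cRA (7.27 to 15.4), 10.2% with doxazosin (6.65 to 14.8) and 10.98% with DMSO (7.81 to 14.9).

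COL6A2, the second chain of the same filament, lies 116360 bases from COL6A1 on the same strand. It had 1.58 CPM in combination cells, 0.839 CPM in 13cRA cells, 1.08 CPM in doxazosin cells and 0.727 CPM in DMSO cells, and 88 of the 114 combination reads came from 1 cell. Without the top cells its combination level was 0.360 CPM and the difference for the combination over doxazosin was -0.44 in place of 0.31. For 13cRA over DMSO it was 0.09, and -0.05 with TMM factors. COL6A6, a chain thought to take the place of COL6A3 in some filaments, had 0.402, 4.11, 1.28 and 0.332 CPM in combination, 13cRA, doxazosin and DMSO cells. Its 13cRA level stood apart (log2 1.94 over DMSO), with 37 of 93 reads in 1 cell. None of 270 thinned combination cells had a COL6A6 read (a share of up to 1.36% at that depth), whereas 12 of 287 had one before thinning. COL6A3, the usual partner of COL6A1 and COL6A2, had at most 0.845 CPM in any sample.

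COL4A2 was the only basement membrane collagen that reached the minimum. It had 0.845 CPM in combination cells, 2.65 CPM in 13cRA cells, 0.823 CPM in doxazosin cells and 0.810 CPM in DMSO cells, and 31 of the 60 13cRA reads came from 1 cell. The difference for 13cRA over DMSO was 1.01, or 0.69 without the top cells, and for the combination over doxazosin it was 0.02. Its partner COL4A1, which is read from the opposite strand of the same locus, had 0.942, 1.502, 1.06 and 0.374 CPM in combination, 13cRA, doxazosin and DMSO cells. A read of both was seen in 5 combination cells, 1 13cRA cell, 1 doxazosin cell and no DMSO cell, so joint expression of the chains could not be judged at this depth. COL4A2 shares 81 and 14 exonic bases with 2 antisense genes, COL4A2-AS1 and COL4A2-AS2, and the strand setting of the counting is not given in the sources used here.

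Of the FACIT collagens, COL16A1, found near fibrils and at cell surfaces, differed little between samples. It had 2.90 CPM in combination cells, 4.02 CPM in 13cRA cells, 3.49 CPM in doxazosin cells and 2.99 CPM in DMSO cells, and the 4 intervals overlapped. The difference for 13cRA over DMSO was 0.33 and was -0.06 after thinning. Its exons share 117 bases with the antisense gene AC114488.2. COL9A2, a chain of the type IX collagen that coats cartilage fibrils, had 1.98, 5.48, 0.585 and 1.79 CPM in combination, 13cRA, doxazosin and DMSO cells. It was higher in both comparisons, at 1.22 for 13cRA over DMSO and 0.91 for the combination over doxazosin, but 68 of its 143 combination reads came from 1 cell and the second difference was 0.47 without the top cells. COL14A1, which binds fibrils and sets their spacing, had 0.887, 1.99, 1.54 and 1.49 CPM in those samples, and COL26A1, a short collagen with an EMI domain, had 0.360, 3.18, 0.368 and 0.478 CPM. The COL26A1 level stood apart with 13cRA alone, whereas COL14A1 was lowest in the combination.

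Levels can be set side by side between genes only per length of exon. In CPM per kb, COL6A1 led in 13cRA cells (3.21), doxazosin cells (1.13) and DMSO cells (1.05), and COL25A1 led in combination cells (1.35). Second place went to COL25A1 in 13cRA cells (2.33), doxazosin cells (0.805) and DMSO cells (0.634), and to COL5A1 in combination cells (0.873). Without each gene's top cell the order changed in the samples with 13cRA. COL25A1 then led COL6A1 in 13cRA cells (2.07 and 1.57), and COL6A1 was above COL5A1 in combination cells (0.721 and 0.647). COL1A2 was at 0.196 in combination cells, 0.317 in 13cRA cells, 0.613 in doxazosin cells and 0.566 in DMSO cells. The exon lengths are those of GENCODE 29, which is not known to be the annotation behind the counts.

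**Figure D2:**
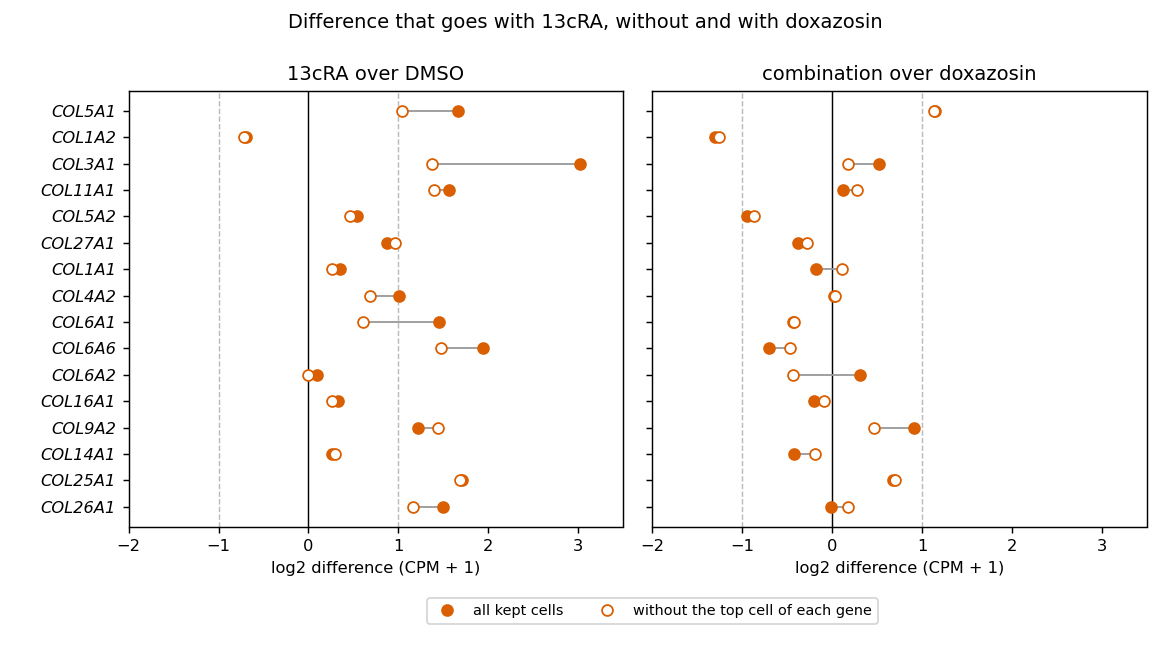
Log2 difference of CPM + 1 for the 16 collagen genes, 13cRA over DMSO on the left and combination over doxazosin on the right, with all kept cells (filled) and without the cell that held the most reads of the gene in each sample (open). Dashed lines mark 2-fold. On the left COL3A1 is at 3.02 with all cells and 1.37 without its top cells, and COL6A1 at 1.46 and 0.61, whereas the COL25A1 and COL1A2 points lie close together.

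For 13cRA over DMSO, 15 of the 16 measured collagens were higher by any amount and 1 was lower, against 52.2% higher among all 13306 measured genes. Of the 16, 9 were at least 2-fold higher, against 8.67% of all measured genes. Among the 5914 genes with a mean of 1 to 12 CPM, the range of the collagens, the shares were 60.2% and 15.2%. The median collagen difference was 1.11, against 0.03 over all measured genes and 0.18 over the genes of that range. None was at least 2-fold lower (3.87% of all measured genes). For 5 of the 16 (COL3A1, COL6A6, COL4A2, COL26A1 and COL1A1) the mean of the other 3 samples was below 1 CPM, so they passed the minimum through the 13cRA sample, and the count over the 16 is a description. Of the other 11, 5 were at least 2-fold higher. Their median was 0.88, and 10 of them were higher. With no minimum, 39 of the 44 collagens were higher and 5 lower, with a median of 0.41. Over all 18141 genes with a mean of 0.1 to 12 CPM, 69.1% were higher, with a median of 0.21, and 7.26% were at least 2-fold higher. Of the 44, the 10th gene past 2-fold was COL13A1, a transmembrane collagen of cell junctions, at 1.41 CPM with 13cRA and 0.145 CPM with DMSO. TMM factors moved the median of all genes by -0.30, and relative to it the collagen median was 1.14, against 1.09 without them.

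With doxazosin present the collagens were close to the share over all genes. For the combination over doxazosin, 7 of the 16 were higher and 9 lower, with a median of -0.09, and 50.8% of all measured genes were higher, with a median of 0.0067. COL5A1 was the 1 gene at least 2-fold higher (4.19% of all measured genes) and COL1A2 the 1 gene at least 2-fold lower (2.57%). Among genes with a mean of 1 to 12 CPM, 53.6% were higher, 7.07% at least 2-fold higher and 4.55% at least 2-fold lower. Across the pair of comparisons that share no sample, 7 collagens were higher in both, as were 32.4% of all measured genes and 37.3% of those with 1 to 12 CPM, COL1A2 was lower in both (29.5%), and the other 8 had opposite signs, as did 38.1% of all measured genes and 39.2% of those with 1 to 12 CPM. The 7 were COL25A1, COL5A1, COL3A1, COL9A2, COL11A1, COL4A2 and COL6A2, of which COL6A2 and COL4A2 lay within 0.1 of 0 in at least 1 of the comparisons.

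Doxazosin over DMSO gave a median of 0.14, with 12 collagens higher and 4 lower, where 45.7% of all measured genes were higher and their median was -0.03. None was at least 2-fold higher (1.38% of all measured genes) or lower (1.23%), and the extremes were COL27A1 at 0.92 and COL9A2 at -0.81. The combination over DMSO had 10 collagens higher and 6 lower (48.3% of all measured genes were higher) and a median of 0.05, against -0.02 over all measured genes, with none at least 2-fold higher (3.89%) and COL1A2 at least 2-fold lower (log2 -1.20, 2.34%). COL25A1 was next to the threshold at 0.97 and was 1.04 after thinning. For the combination over 13cRA, 15 of 16 were lower and 1 higher (46.2% of all measured genes were higher), and 6 were at least 2-fold lower (6.75%), none at least 2-fold higher (3.4%), and the median was -0.91, against -0.05 over all measured genes. Among genes with a mean of 1 to 12 CPM, 38.3% were higher and 12.2% at least 2-fold lower. The 5 genes that passed the minimum through the 13cRA sample were all lower and gave 3 of the 6, and of the other 11, 10 were lower and 3 at least 2-fold lower, with a median of -0.73. These comparisons share samples with those above.

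**Figure D3:**
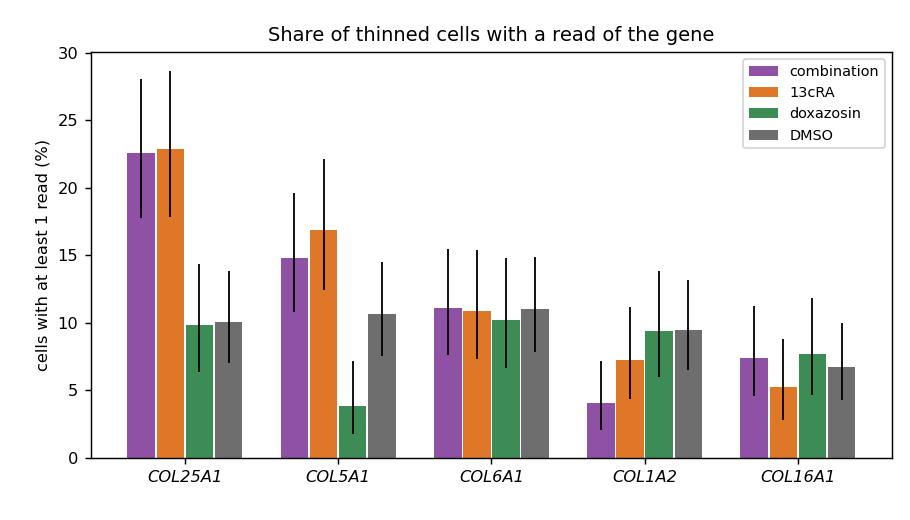
Share of cells with at least 1 read after thinning every cell to 34000 reads, for the 5 collagens with the highest mean level, in the 4 treatment samples with exact 95% binomial intervals. COL25A1 shares are 22.6% and 22.9% in the samples with 13cRA and 9.79% and 10.1% in those without it, and the COL6A1 bars are level.

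A single cell often carried much of a collagen's signal. In the 13cRA sample the top cell of a gene held between 11.1% (COL25A1) and 77.4% (COL3A1) of its reads, and the 16 genes had 14 different top cells, none of which led more than 2 genes. The cell that led COL5A1 and COL16A1 there also led COL4A5, COL22A1, COL20A1 and COL23A1, which are below the minimum. Over all 44 collagens, 1 thinned cell had reads of up to 13 genes in the combination, 12 with 13cRA, 4 with doxazosin and 5 with DMSO. Leaving out each gene's top cell does not leave out such cells for other genes. The median share of the top cell was 16.1% in the combination, 22.0% with 13cRA, 20.9% with doxazosin and 20.4% with DMSO. Over all genes with a mean of 1 to 12 CPM it was 16.3%, 22.0%, 16.7% and 13.1% in the same order of samples. Without each gene's top cells, 12 of the 16 collagens were highest with 13cRA, and by thinned share of positive cells 9 of the 16 were. With all cells kept, 43.3% of genes of that range were highest with 13cRA. The share over all genes is not given without top cells or by thinned share, so neither count has a like background. The 5 genes that passed the minimum through the 13cRA sample are among the 12, and of the other 11 genes 7 were highest with 13cRA without top cells and 5 by share.

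**Figure D4:**
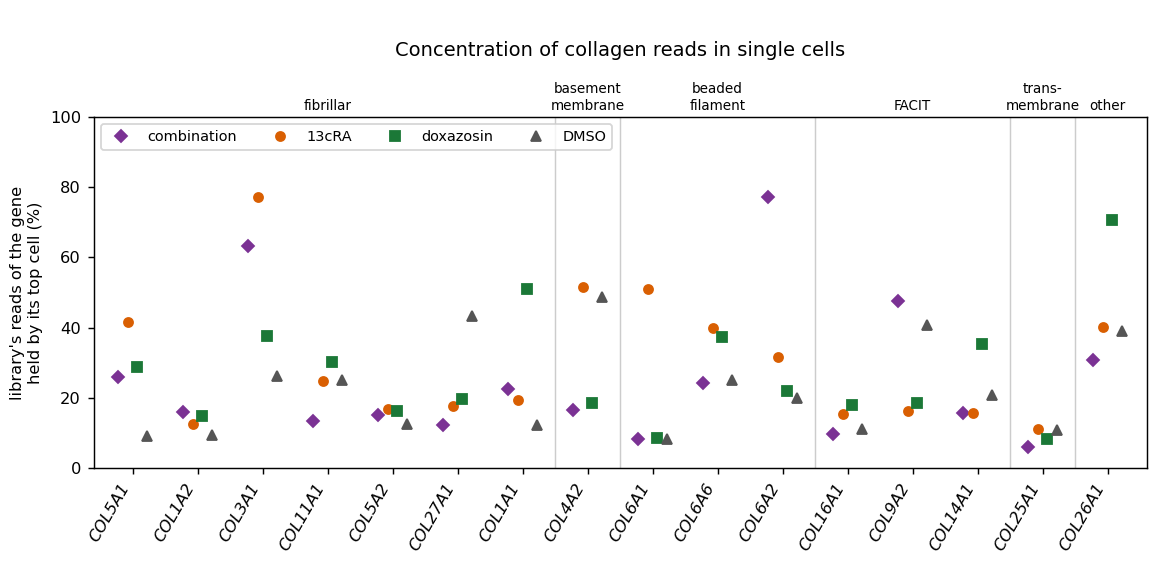
Share of a sample's reads of each collagen gene that came from the cell with the most reads of it, in the 4 treatment samples. The highest values are 77.4% for COL3A1 with 13cRA and 77.2% for COL6A2 in the combination, and COL25A1 stays between 5.85% and 11.1%.

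HAND2 and MYCN were present, whereas enzymes of noradrenaline synthesis were near 0. Of the neuroblastoma list 11 of 13 genes were measured. For 13cRA over DMSO 5 were higher and 6 lower (1 at least 2-fold lower), against 52.2% of all measured genes higher. For the combination over doxazosin 3 were higher and 8 lower (1 at least 2-fold higher, 2 at least 2-fold lower), against 50.8% higher. HAND2, a regulator of sympathetic neurons, had 73.9 to 85.7 CPM in the 4 samples, and MYCN, the amplified oncogene of many neuroblastomas, 759 to 1168 CPM. TH and DBH, which make noradrenaline, had at most 0.177 CPM, and DCN and LUM, matrix genes of fibroblasts, had at most 0.884 CPM. The summed fibroblast list (10 genes, 3 of them at a mean of 1 CPM or more) was 179, 179, 165 and 172 CPM in the combination, 13cRA, doxazosin and DMSO samples. Nearly all of it came from members other than DCN and LUM. A read of the list was seen in 92.2%, 88.8%, 92.3% and 95.1% of thinned cells in the same order. The Schwann cell list (3 of 8 measured) summed to 4.14, 13.8, 2.66 and 2.72 CPM and the endothelial list (1 of 7 measured, CLDN5) to 13.2, 23.7, 1.93 and 1.52 CPM in the same samples, both higher with 13cRA. All 3 measured Schwann genes were higher for 13cRA over DMSO (log2 0.63 to 2.69, 2 at least 2-fold) and for the combination over doxazosin (0.13 to 0.89), as was CLDN5 (3.75 and 2.82). Of the Schwann list S100B had no read in the 13cRA sample, 65.5% of its ERBB3 reads came from 1 cell, and of the endothelial list PECAM1 and CDH5 stayed at or below 1.19 CPM. The part of these lists in the collagen differences was not tested. The epithelial and leukocyte lists had no gene with a mean of 1 CPM. No doublet caller was run, so doublets were not tested for. In the combination sample 4 cells had over 9000 genes and held 14.1% of its collagen reads. The same cells held 3.38% of the reads of all measured genes and 4.91% of those of genes with a mean of 1 to 12 CPM. The largest of them had 18592 genes and 1436262 reads, against medians of 6626 and 221558 in that sample. It held the most combination reads of COL6A6, COL14A1 and several collagens below the minimum.

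The partner lists below are set against the same shares of all measured genes as the collagens. For 13cRA over DMSO these were 52.2% higher, 8.67% at least 2-fold higher and 3.87% at least 2-fold lower, and for the combination over doxazosin 50.8%, 4.19% and 2.57%. The median over all measured genes was 0.03 and 0.0067.

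Genes that fold and modify collagen chains did not move together. Of 19, 16 were measured, 9 higher and 7 lower for 13cRA over DMSO (median 0.14) and 6 higher and 10 lower for the combination over doxazosin (median -0.16). The 1 gene at least 2-fold higher was P3H3, of the prolyl 3-hydroxylase family, at 4.21, 11.8, 4.76 and 5.02 CPM in combination, 13cRA, doxazosin and DMSO cells. Its log2 difference was 1.09 for 13cRA over DMSO and -0.15 for the combination over doxazosin. P3H1, the prolyl 3-hydroxylase of bone collagen, and P3H4, a binding partner of P3H3, had 0.83 and 0.78 for 13cRA over DMSO, against -0.39 and -0.45 for the combination over doxazosin, and TMEM38B, an endoplasmic reticulum ion channel, had -0.95 and -0.11.

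Most export genes had lower values with 13cRA. Of 11 measured of 12, 2 were higher and 9 lower for 13cRA over DMSO (median -0.31), and 3 higher and 8 lower for the combination over doxazosin (median -0.15). SEC23A, a subunit of the COPII coat on which procollagen export depends, had 52.3 CPM in combination cells, 15.4 CPM in 13cRA cells, 56.9 CPM in doxazosin cells and 40.2 CPM in DMSO cells. It was the 1 gene at least 2-fold lower with 13cRA (log2 -1.33), and the combination over doxazosin differed by -0.12. TFG, SEC13 and KLHL12, which organise or enlarge the same carriers, had -0.75, -0.63 and -0.48 for 13cRA over DMSO and 0.05, -0.15 and 0.07 for the combination over doxazosin.

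Processing and cross-linking genes included some that were far higher with 13cRA, in a list whose median was near 0 with doxazosin present. Of 13 measured of 15, 10 were higher and 3 lower for 13cRA over DMSO (3 at least 2-fold higher, median 0.70), and 8 higher and 5 lower for the combination over doxazosin (3 at least 2-fold higher, median 0.06). LOXL4, a lysyl oxidase-like cross-linking enzyme, had 25.03 CPM in combination cells, 20.6 CPM in 13cRA cells, 1.32 CPM in doxazosin cells and 2.14 CPM in DMSO cells. Both samples with 13cRA stood far above those without it, with differences of 2.78 and 3.49, and thinned shares of positive cells were 23.0%, 14.9%, 1.70% and 2.74% in the same order of samples. TGM2, a transglutaminase known as a retinoid-inducible gene, had 1.30, 3.53, 0.819 and 0.581 CPM, with 58.8% of its 13cRA reads in 1 cell. PCOLCE2, an enhancer of C-propeptide removal, had a difference of 1.37 for 13cRA over DMSO and 0.06 for the combination over doxazosin, and LOXL1, another lysyl oxidase-like enzyme, 0.96 and 0.38. Chosen after their values were seen, the other 2 genes past 2-fold for the combination over doxazosin were the procollagen proteases TLL1 (1.41) and ADAMTS2 (1.20).

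Collagen receptors had 6 of 12 genes measured, 4 higher and 2 lower for 13cRA over DMSO with none past 2-fold (median 0.28). For the combination over doxazosin 3 were higher and 3 lower, with 1 at least 2-fold higher (median 0.03). DDR2, a receptor kinase for fibrillar collagen, had 63.4 CPM in combination cells, 104 CPM in 13cRA cells, 65.1 CPM in doxazosin cells and 60.3 CPM in DMSO cells. DDR1, its relative, had differences of 0.47 and 0.33, ITGB1, the beta subunit of the collagen-binding integrins, -0.54 and 0.10, and MRC2, an endocytic collagen receptor, 0.87 and 1.20, for 13cRA over DMSO and the combination over doxazosin. Of the MRC2 reads of the combination 69.7% came from 1 cell, and its second difference was 0.20 without the top cells.

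Basement membrane partners had 9 of 16 genes measured, 8 higher and 1 lower for 13cRA over DMSO (2 at least 2-fold higher, median 0.46) and 8 higher and 1 lower for the combination over doxazosin (none past 2-fold, median 0.20). The laminin gamma-1 gene LAMC1 had 20.4 CPM in combination cells, 25.3 CPM in 13cRA cells, 9.83 CPM in doxazosin cells and 14.5 CPM in DMSO cells, so both samples with 13cRA were above both without it, with differences of 0.76 and 0.99. LAMA5 and LAMB1, laminin alpha and beta chains, had 1.45 and 0.59 for 13cRA over DMSO and 0.64 and 0.06 for the combination over doxazosin. NID2, a nidogen that links laminin and type IV collagen, had 2.696 for 13cRA over DMSO with 81.1% of its 13cRA reads in 1 cell, and 1.13 without the top cells.

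Degradation genes had 6 of 16 measured, 5 higher and 1 lower for 13cRA over DMSO (3 at least 2-fold higher) and 3 higher and 3 lower for the combination over doxazosin (2 at least 2-fold higher). MMP11, a protease first described in tumour stroma, had 25.3 CPM in combination cells, 43.8 CPM in 13cRA cells, 3.79 CPM in doxazosin cells and 3.53 CPM in DMSO cells, with differences of 3.31 and 2.46. MMP2, a gelatinase, had 68.4, 84.6, 38.7 and 40.4 CPM, and TIMP3, a matrix-bound inhibitor of these proteases, 20.8, 26.9, 9.27 and 12.9 CPM in the same samples. For MMP2 and TIMP3 both samples with 13cRA were above both without it. CTSK, the collagen-cleaving cathepsin of bone, had differences of -0.28 and -0.36.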

How the data were processed

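CHP134 cells of 4 treatments, 1 sample each, were sequenced as full-length single-cell libraries on 1 ICELL8 chip, per the labels. The authors deposited a table of raw counts, whole numbers of reads for each gene in each cell. Among the tools in the submitters' processing notes are the trimmer fastp 0.23.3, the aligner STAR 2.7.8a and the counter featureCounts, and 2 human builds, GRCh38.p13 and GRCh37. Which annotation was used, and whether counting used strand, is not given in the sources used here, so genes with antisense or overlapping partners are uncertain.

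From these counts, cells with at least 500 genes and at most 25% mitochondrial counts were kept (1197 of 1287), added up within each sample and divided by the sample's total to give CPM. Differences used a pseudocount of 1 CPM. Genes with a mean of at least 1 CPM were called measured. Every measured collagen is named, and per partner list the 4 measured genes with the greatest absolute difference for 13cRA over DMSO. No test was run, since each treatment has 1 sample. Thinning drew 34000 reads per cell without replacement, which left out shallower cells, so that 270, 249, 235 and 328 cells of the combination, 13cRA, doxazosin and DMSO remained. TMM factors came from edgeR 4.0.16 and size factors from DESeq2 1.42.0 in R 4.3.3, both only as alternative scalings, and the rest was done in Python 3.11.15. The code for fold calls was run on simulated summed counts with known folds. These hold no spread between cells, and the outcome is not reported here. Gene positions are from GENCODE 29 (GRCh38). The members and lists were chosen with earlier results of these data known. A few marker genes are not reported here.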

Additional observations from a re-analysis of the deposited data

Results flagged for a closer look

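For 8 collagens the difference that goes with 13cRA had one sign without doxazosin and the other with it, as for 38.1% of all measured genes and 39.2% of those with a mean of 1 to 12 CPM. The effect with doxazosin minus that without (log2) was -2.64 for COL6A6, -1.90 for COL6A1, -1.51 for COL26A1, -1.49 for COL5A2, -1.27 for COL27A1, -0.69 for COL14A1, -0.54 for COL16A1 and -0.54 for COL1A1. With 1 sample per treatment these differences were not tested. The opposite signs did not hold in every setting. For the combination over doxazosin, COL26A1 was -0.0085 with all cells, 0.17 without the top cells and 0.46 after thinning, COL1A1 was -0.18 and was 0.11 without the top cells, and COL5A2 was -0.95 and was 0.24 with no cell filter. COL16A1 had -0.06 for 13cRA over DMSO and 0.13 for the combination over doxazosin after thinning, each of the other sign than with all reads, and COL5A2 had -0.28 for 13cRA over DMSO after thinning.

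A few rows outside the 44 genes, antisense RNAs and a pseudogene, had a Poisson interval in a treated sample that lay above that of DMSO. They were picked by that rule from all other rows with a collagen symbol. The share of all genes that meets it is not given, and the intervals cover counting error only. COL5A1-AS1, which lies antisense within COL5A1, had 0.596 CPM in the combination and 0.795 CPM with 13cRA, against 0.0217 CPM with doxazosin and 0.0415 CPM with DMSO, from 43 reads in 7 cells, 18 reads in 4 cells, 1 read in 1 cell and 2 reads in 2 cells. The exons of COL5A1-AS1 share no base with those of COL5A1 in the annotation used here for gene positions. The annotation and strand setting of the counting are not given, so whether reads of the pair were kept apart was not tested. COL4A2-AS1 had 0.309 CPM with 13cRA, from 7 reads in 2 cells, and no read with DMSO. COL4A2-AS2 had 0.260 CPM with doxazosin, from 12 reads in 1 cell, and COL6A4P1 had 0.166 CPM in the combination, from 12 reads in 8 cells, both with no read in DMSO. COL6A4P1 was at like levels with 13cRA (0.177 CPM) and doxazosin (0.173 CPM), where its intervals overlapped that of DMSO.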

How the results depend on the processing

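No paired analysis was possible because each treatment has 1 sample. Of the 16 measured collagens, 9 were at least 2-fold higher for 13cRA over DMSO with the settings used, and 4 with a pseudocount of 5 CPM. A minimum mean of 5 CPM leaves only 3 collagens, and all 3 were at least 2-fold higher. The share of all genes under each changed setting is not given here, so these counts are descriptions. For the combination over doxazosin the count higher was 0 with the mean of per-cell CPM and with the pseudocount of 5 CPM and 3 with no cell filter, and the count lower was 2 with DESeq2 size factors and after thinning, and 0 with the pseudocount of 5 CPM and with the minimum of 5 CPM, where the median over 3 genes was 0.68. For the combination over DMSO the count higher was 1 with the mean of per-cell CPM, with no cell filter, without the top cells, after thinning and, chosen after seeing the data, without cells over 9000 genes, and the count lower was 0 with the mean of per-cell CPM, both 5 CPM settings and thinning. For the combination over 13cRA the count lower was 2 with both 5 CPM settings, and the median with no minimum was -0.35. With the mean of per-cell CPM, COL11A1 (-1.21), COL5A2 (-1.19) and COL1A2 (-1.15) also passed 2-fold lower. With TMM factors, COL9A2 (-0.87) and COL5A1 (-0.79) no longer did. The cause of these shifts was not tested, beyond the 3 genes left by the 5 CPM minimum. The 13cRA over DMSO median, 1.11 with the settings used, was 0.83 to 0.97 with the TMM, DESeq2, thinned, per-cell and top-cell settings and 0.73 with no cell filter. It was 0.49 with the pseudocount of 5 CPM, 0.41 with no minimum and 1.66 over the 3 genes with a mean of 5 CPM. Depth limits all shares under about 5% of cells, and low levels rest on few cells.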
